A study of Bos taurus with 4 samples.

Results

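The genes Bzw2, Fermt2, Vsnl1, Tm4sf1, Nampt, Cfap36, Zfp638 and Rpf2 were represented by 18 mouse cDNA clones on the array, and every one of these clones had a mean log2 ratio of PACAP over control above 0. The clones were those whose platform annotation gave 1 of these 8 symbols, out of 35112 clones tested and 11740 named genes. The genes were chosen by the log2 ratios of their clones in these same hybridisations, which read higher with PACAP on every clone of the gene. Their ratios are therefore described without a test, and nothing is supported with them.

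The cells were bovine chromaffin cells, which store and release catecholamines in the adrenal medulla. PACAP, short for pituitary adenylate cyclase-activating polypeptide, is a peptide transmitter whose receptor raises cyclic AMP, and it was given in vitro. The treated group received 100 ng/ml for 6 h at 37 C, and no treatment is given for the control group. Total RNA of both groups was hybridised to 4 arrays, each carrying 1 biological repeat, with treated cDNA in Cy5 and control cDNA of the same repeat number in Cy3. The dyes were not swapped on any array, so a dye preference and the treatment cannot be told apart for any clone. The labels name the cells as chromaffin cells but enter the tissue as brain, and they do not say whether the repeats came from separate animals, so the spread may be partly technical. No strain, age or genotype is given.

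The 8 genes do not form a pathway. Vsnl1 encodes visinin-like protein, a neuronal calcium sensor that moves to membranes when it binds calcium. Tm4sf1 encodes a small membrane protein of the L6 family that is abundant on endothelial and many tumour cells. Fermt2 encodes kindlin-2, which binds integrin tails at adhesions and helps to activate them. Nampt encodes the rate-limiting enzyme of NAD salvage from nicotinamide. Bzw2 and Rpf2 belong to protein synthesis: Bzw2 carries a W2 domain like that of the initiation factor eIF5 and takes part in start codon selection, and Rpf2 helps to place the 5S ribonucleoprotein into the nascent large ribosomal subunit. Zfp638 is a nuclear zinc finger protein that binds nucleic acid and acts in gene silencing, and Cfap36 binds the small GTPase ARL3, which works in cilia. All 8 have a named counterpart in the cattle RefSeq annotation (assembly ARS-UCD2.0), where Zfp638 is listed as ZNF638. A shared name does not show which bovine transcripts a mouse clone bound, and this was not tested.

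The clone titles in the scanner tables did not bear out every symbol. The titles of Vsnl1 (visinin-like 1), Tm4sf1 (transmembrane 4 superfamily member 1), Nampt (pre-B-cell colony-enhancing factor, an older name) and Zfp638 (nuclear protein 220, also an older name) named the same gene. Those of Bzw2, Cfap36 and 1 Rpf2 clone gave only a RIKEN cDNA number, and the other Rpf2 clone, known by its plate position NIA6C23, had no title. All 3 Fermt2 clones carried the title NADH dehydrogenase flavoprotein 1, which is the protein of Ndufv1. Which gene these 3 clones hold was not settled by the files, so they are called here the clones annotated Fermt2.

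Of 17 member clones with a value on all arrays, 15 were above 0 on 4 of 4, where 10.1% of all clones with 4 arrays were, and 0 of 17 were below 0 on 4 of 4, where 8.71% were. All 18 means were above 0, as for 48.6% of tested clones, and all 18 were above 0.7, as for 3.98%. A mean above 1 was reached by 12 of 18, against 0.809% of tested clones. Of genes with 2 or more tested clones, 23.8% had every clone mean above 0, 0.455% had every clone mean above 0.7, and 1.36% (81 of 5936) had every clone higher on 4 of 4 arrays. Among those 81, ordered by the mean of their clones, Tac1 and Crem came first and second. Tm4sf1, Vsnl1 and Bzw2 were at ranks 3 to 5, Cfap36 and Zfp638 at ranks 7 and 8, and Rpf2 at rank 13. Fermt2 and Nampt were not among them, because 1 clone of each had a value just below 0. The other Nampt clone also had no value on repeat 4. Other genes in this order were Ccdc153 at rank 6, with a mean of 1.14, Utp11 at rank 9 with 0.95 and Nectin3 at rank 14 with 0.87, directly after Rpf2. Since these shares come from the contrast that chose the genes, nothing is read from them.

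Limma called 0 of 35112 clones at an adjusted p under 0.05 (0.0% of them, lowest adjusted p 0.454), while 3647 had an unadjusted p under 0.05, of which 1378 were higher (3.92% of all clones) and 2269 lower (6.46%).

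Vsnl1 had 2 clones, both from the BMAP library. Clone AI839585 had log2 ratios of 0.66, 2.16, 1.98 and 0.90 on repeats 1 to 4, with a mean of 1.43 ± 0.75 (SD, n = 4), a 2.69-fold ratio. Clone AI841607, the brightest of all 18, had 0.74, 0.89, 0.83 and 1.45, with a mean of 0.98 ± 0.32 (SD, n = 4). The larger spread of the first clone came from repeats 2 and 3, on which it lay 1.27 and 1.15 above the second, whereas on repeats 1 and 4 it lay 0.08 and 0.55 below. Clone AI841607 had intensities of 5146.5, 2175.4, 1027.8 and 2356.7 in the PACAP channel and 1369.6, 387.8, 277.3 and 1939.2 in the control channel. The PACAP channel was the brighter of the 2 on each array, by the narrowest ratio on repeat 4. Both clones exceeded 2 background SD in the control channel on 4 of 4 arrays, although AI839585 did so by little on repeat 3 (2.08 SD).

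**Figure D1:**
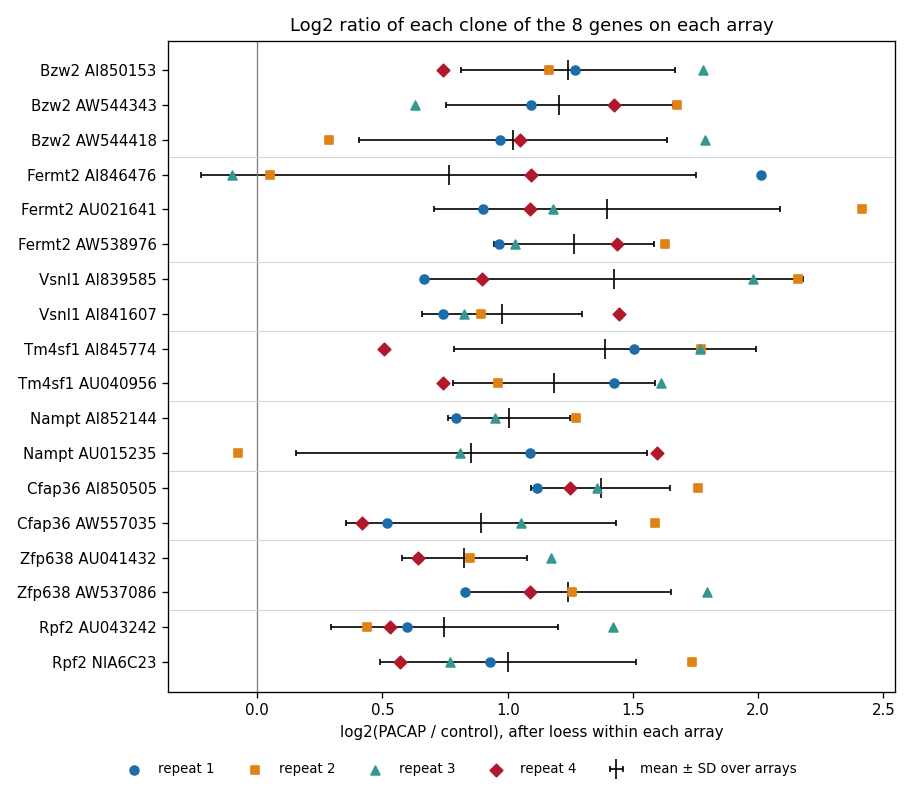
Log2(PACAP / control) after loess normalization within each array (horizontal axis) for the 18 clones of the 8 genes (rows), with a marker for each of the 4 repeats and a bar for the mean ± SD over arrays. All means lie between 0.75 and 1.43, and 2 of 71 single values lie below 0, repeat 3 of Fermt2 AI846476 and repeat 2 of Nampt AU015235.

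Tm4sf1 had a gene mean of 1.29 ± 0.46 (SD, n = 4, mean of its clones on each array). It was the highest of the 8 as reported. With spots kept only where both channels exceeded background it was 1.04, below Vsnl1 (1.20), Fermt2 (1.16), Cfap36 (1.13) and Bzw2 (1.10). In that setting AI845774 dropped out, so the Tm4sf1 value is that of clone AU040956 alone. Without repeat 1 Vsnl1 was the highest (1.37, against 1.23 for Tm4sf1), and without repeat 3 Fermt2 was (1.29 against 1.15), so the genes have no firm order. Clone AI845774 had 1.51, 1.77, 1.77 and 0.51, and clone AU040956 had 1.42, 0.96, 1.61 and 0.74. On both clones repeat 4 was the lowest. The means of the 2 clones were 1.39 ± 0.60 and 1.18 ± 0.40, and they differed by 0.81 or less on every array. AU040956 had PACAP intensities of 2701.7, 1859.1, 745.8 and 1365.5 and control intensities of 526.3, 341.8, 144.7 and 1841.6. On repeat 4 the control channel was thus the brighter before normalization. Control signal exceeded 2 background SD on 3 of 4 arrays for this clone and on 2 of 4 for AI845774.

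The 3 clones annotated Fermt2 disagreed most among themselves. Clone AW538976 had 0.97, 1.63, 1.03 and 1.44 (mean 1.26 ± 0.32, n = 4), and clone AU021641 had 0.90, 2.41, 1.18 and 1.09 (mean 1.40 ± 0.69, n = 4). Both were above 0 on every array, and both were highest on repeat 2. Clone AI846476 had 2.01, 0.05, -0.10 and 1.09 (mean 0.76 ± 0.99, n = 4), the largest SD of the 18 clones. It was also the dimmest, at the 3.23 percentile of brightness of library clones, with PACAP intensities of 173.9, 113.4, 66.9 and 151.4. Its control signal exceeded 2 background SD on repeat 4 only. The value of 2.01 on repeat 1 came from a spot of 57 pixels whose control intensity was 0.158 background SD. For AW538976 the control channel read 745.1, 247.7, 219.9 and 2410.7 against 2912.5, 1986.6, 864.7 and 2923.2 for PACAP, above 2 background SD in both channels on all 4 arrays.

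A further clone, AW558110, shared the title and the UniGene cluster with the 3 clones annotated Fermt2, but its platform symbol was Ndufv1. Its log2 ratios were -0.54, -2.63, -1.13 and 0.22 (mean -1.02 ± 1.20, n = 4). On repeats 1 to 3 it lay below 0, where AW538976 and AU021641 lay above 0. The other Ndufv1 clone, BE950569, had a mean of 0.01 ± 0.44 (n = 4). With AW558110 counted among them, the mean of the cluster's 4 clones was 0.60 instead of 1.14.

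Nampt had 2 clones, 1 of them with a value just below 0. Clone AU015235 had 1.09, -0.07, 0.81 and 1.60 on repeats 1 to 4 (mean 0.86 ± 0.70, n = 4), with PACAP intensities of 2301.4, 1147.2, 743.9 and 957.1 and control intensities of 570.3, 456.7, 226.2 and 729.9. Its control signal was above 2 background SD on every array, so the value near 0 on repeat 2 came from a spot bright in both channels. Clone AI852144 had 0.79, 1.27 and 0.95 on repeats 1 to 3 (mean 1.01 ± 0.24, n = 3) and no spot area on repeat 4, where it was left out. That clone was dim, with control signal above 2 background SD on 0 of 3 arrays, so its ratio rests on control spots near background. Outside the rule, clone AI852914 carried the same title and the same UniGene cluster under the symbol AI480535. It had 0.06, 1.39, 1.30 and -0.10 (mean 0.66 ± 0.80, n = 4), above 0 on 3 of 4 arrays, with control signal above background on 2. The mean of the 3 clones was 0.84, against 0.93 for the 2 with the Nampt symbol.

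Bzw2 had 3 clones whose means lay within 0.22 of one another. Clone AI850153 had 1.27, 1.17, 1.78 and 0.74 (mean 1.24 ± 0.43, n = 4). Clone AW544343 had 1.09, 1.68, 0.63 and 1.42 (mean 1.21 ± 0.45, n = 4). Clone AW544418 had 0.97, 0.28, 1.79 and 1.05 (mean 1.02 ± 0.61, n = 4). The order of the repeats was not shared: repeat 3 was the highest array for AI850153 and AW544418 and the lowest for AW544343. On that repeat AW544343 was 1.16 below AW544418, and on repeat 2 it was 1.39 above it. As a result, the mean over clones was even across arrays, at 1.11, 1.04, 1.40 and 1.07 (gene mean 1.16 ± 0.16, n = 4), the smallest SD of the 8 genes. AW544343 had PACAP intensities of 5174.1, 2550.8, 1351.0 and 1482.5 and control intensities of 1100.5, 277.1, 378.8 and 1253.7, with the PACAP channel brighter on all 4.

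Rpf2 had a gene mean of 0.87 ± 0.27 (n = 4). Clone AU043242 had 0.60, 0.44, 1.42 and 0.53 (mean 0.75 ± 0.45, n = 4), with repeat 3 apart from the other arrays. Clone NIA6C23 had 0.93, 1.73, 0.77 and 0.57 (mean 1.00 ± 0.51, n = 4), with repeat 2 the highest. The array that stood high for each clone was thus not high for the other. AU043242 had PACAP intensities of 455.2, 785.9, 432.8 and 714.4 against control intensities of 221.7, 283.4, 120.1 and 1141.0. Its control signal exceeded 2 background SD on 4 of 4 arrays, but by little on repeats 1 and 3 (2.03 and 2.05 SD).

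Zfp638 and Cfap36 were the genes in which the same clone was ahead on every array. For Zfp638, clone AW537086 had 0.83, 1.26, 1.80 and 1.09 (mean 1.24 ± 0.41, n = 4) and clone AU041432 had 0.64, 0.85, 1.17 and 0.64 (mean 0.83 ± 0.25, n = 4). The second lay below the first by 0.19 to 0.63, and repeat 3 was the highest on both. AU041432 had PACAP intensities of 1076.3, 1366.4, 788.9 and 1486.1 and control intensities of 412.7, 306.1, 191.1 and 2139.8, above 2 background SD on 4 of 4 arrays in both channels. For AW537086 the control signal passed that level on 2 of 4.

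For Cfap36, clone AI850505 had 1.12, 1.76, 1.36 and 1.25 (mean 1.37 ± 0.28, n = 4), and clone AW557035 had 0.52, 1.59, 1.05 and 0.42 (mean 0.89 ± 0.54, n = 4). AI850505 was ahead by 0.17 to 0.83, and repeat 2 was the highest on both. AI850505 had PACAP intensities of 5437.2, 2883.3, 785.9 and 534.3 and control intensities of 1128.9, 284.4, 172.0 and 513.6. Its spot on repeat 4 covered 41 pixels, against 117 to 127 on the other arrays. Both clones exceeded 2 background SD in the control channel on all arrays, AW557035 only just on repeat 2 (2.03 SD).

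**Figure D2:**
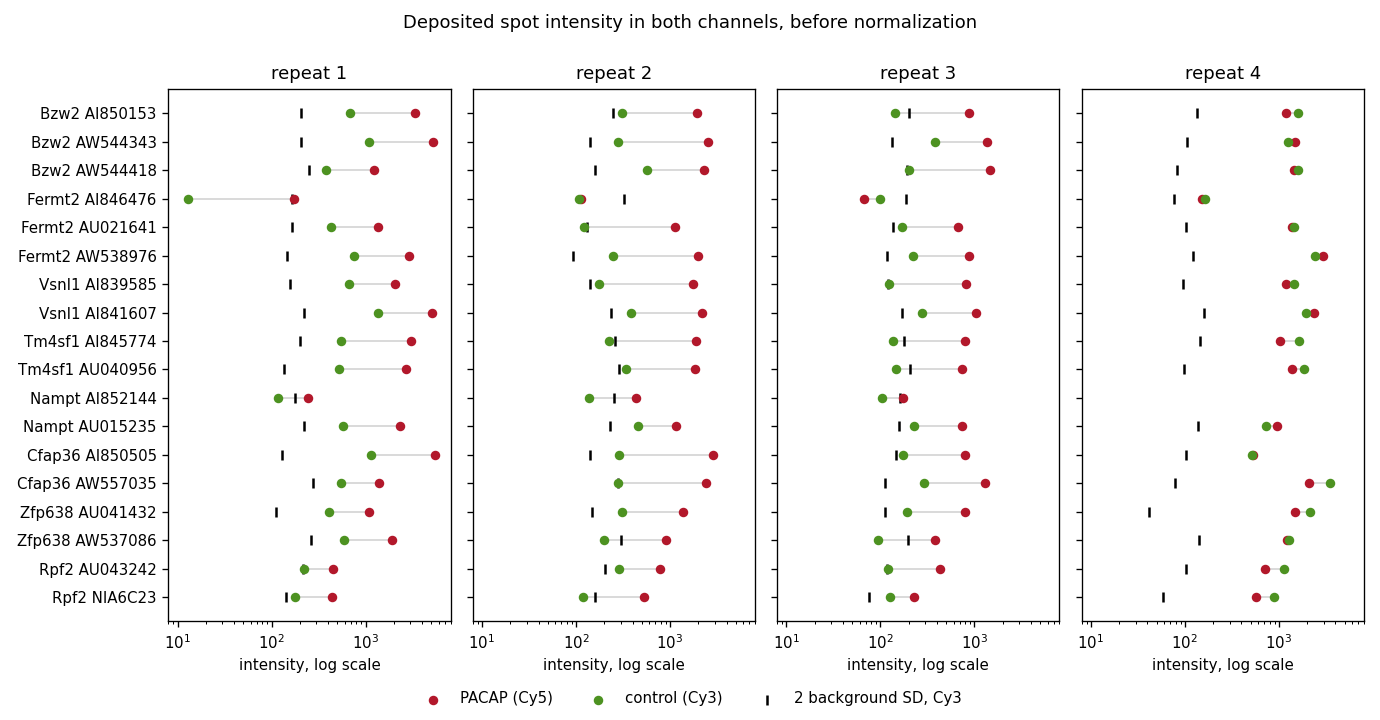
Deposited spot intensity (horizontal axis, log scale) of each member clone (rows) in the PACAP channel (red) and the control channel (green) on each repeat, with a tick at 2 SD of the local Cy3 background. On repeats 1 to 3 the red points lie to the right except Fermt2 AI846476 on repeat 3; on repeat 4, where Nampt AI852144 has no spot, they lie to the right for 5 of 17 clones.

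Before normalization, the PACAP channel was the brighter in 18, 18 and 17 of 18 member clones on repeats 1, 2 and 3, and in 5 of 17 on repeat 4. The median raw log2 ratio of the members was 1.82, 2.47, 2.00 and -0.13 on repeats 1 to 4. Over all library spots it was 0.58, 0.54, 0.07 and -1.17, and over the brightest of 5 equal classes of tested clones 1.01, 1.53, 0.96 and -1.20. The members' medians lay above those of the brightest class on each array. Since the members were chosen by their ratios on these arrays, nothing is read from this. The positive values on repeat 4 are values relative to the other clones of that array. After normalization the members' medians were 0.95, 1.26, 1.18 and 1.05.

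In the PACAP channel all 71 member spots with an area exceeded 2 background SD, against 57 of 71 in the control channel (16, 12, 12 and 17 on repeats 1 to 4). Of all library spots, 97.6, 98.4, 97.8 and 91.9% did so in the PACAP channel on repeats 1 to 4. In the control channel 80.9, 53.0, 46.0 and 98.3% of them did, so the gap between channels on repeats 1 to 3 was not particular to the members. For 10 of 18 clones control signal passed that level on 4 arrays. Members were bright: 14 of 18 were in the brightest of the 5 classes, and their median brightness lay at the 89.1 percentile. In that class 13 of the 14 were higher on 4 of 4 arrays, where 16.6% of its clones with 4 arrays were, against 4.98% in the dimmest class. A mean above 0.7 was held by all 14 and by 3.79% of the class. The share of clones higher on 4 of 4 arrays therefore grew with brightness on these arrays. The part of brightness in the choice of these genes was not tested. The members' counts come from the contrast that chose them, so nothing is read from those counts.

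The clones of a member gene lay closer together than those of most genes: the range of clone means had a median of 0.34 over the 8 genes and of 0.52 over 5936 genes with 2 or more clones, and 7 of 8 were below the latter. Since members were picked for clones that read alike, this is a description. Array by array the clones were less alike. In each of 12 pairs of clones of the same gene, the array on which they differed most gave a difference of between 0.63 (Zfp638) and 2.36 (Fermt2). No repeat was the highest for all genes, with repeat 3 highest for 4 genes, repeat 2 for 3, repeat 4 for 1 and repeat 1 for 0. The mean over the 8 genes was 0.98, 1.21, 1.23 and 0.99 on repeats 1 to 4. The gene highest on repeat 4 was Nampt, whose value there is that of clone AU015235 alone and enters this mean. The 7 BMAP clones (brain) had means of 0.76 to 1.43 and the 11 NIA clones means of 0.75 to 1.40, so the libraries overlapped throughout. The clones lay in 12 of 48 print blocks, in which the median clone had -0.19 to 0.23.

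The named genes whose 4 log2 ratios lay closest to the mean profile of the 8, by Euclidean distance over 4 arrays among 11354 profiles, were Cnn2 (distance 0.33), Dipk1a (0.34) and Brwd3 (0.38). Cnn2 encodes a calponin, an actin-binding protein, and had 0.66, 1.24, 1.16 and 0.95 on repeats 1 to 4. Brwd3, a bromodomain protein, had 1.13, 1.09, 1.52 and 0.85. Over 4 arrays, closeness of this kind is a description.

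Genes that work with each member were examined next, each by its brightest clone. Limma gave 0 of these genes an adjusted p under 0.05, in either direction. At an unadjusted p under 0.05, 5 of 13 genes of start codon selection, 5 of 32 of ribosome assembly, 2 of 23 of ciliary transport, 1 of 16 calcium sensors and 1 of 16 tetraspanins were higher, 0 in the other 3 lists, and 0 lower in any. Over all named genes the median was 0.03 (0.13 under median centring and -0.04 from the deposited log2 ratios), and 52.9% had a mean above 0. Of those with 4 arrays 11.7% (1330 genes) were higher on 4 of 4 and 8.13% were lower. The count of higher genes was 2156 under median centring and 1432 under print-tip loess. It was 1330 with scaling between arrays and 1321 from the deposited log2 ratios. Of all named genes 4.33% had a limma unadjusted p under 0.05 as higher and 4.53% as lower.

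Of 13 measured genes of start codon selection, the field of Bzw2, 5 were higher on 4 of 4 arrays and 0 lower, with a median of 0.34. Eif1b had a log2 ratio of 1.19 ± 0.65 (n = 4) but 1 other clone at -0.95. Eif4g2, which drives initiation without the usual cap-binding step, had 0.70 ± 0.18, and its 5 other clones were also above 0 (0.59 to 1.37). Eif5b, which joins the ribosomal subunits, had 0.79 ± 0.54 with 2 of 2 other clones above 0. The limma adjusted p was 0.454 for each of these 3 genes. Bzw1, the closest relative of Bzw2, had 0.67, 0.83, 0.67 and 0.27 (mean 0.61 ± 0.24, n = 4), and 5 of 5 Bzw1 clones were above 0. The list median was 0.65 under median centring, with 8 higher on 4 of 4, 0.45 under print-tip loess, with 6, and 0.47 from the deposited log2 ratios, with 2.

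Of 32 measured genes of large ribosomal subunit assembly, the field of Rpf2, 24 had a mean above 0, where 52.9% of named genes did. Of 31 with 4 arrays, 9 were higher on 4 of 4 and 0 lower. The median was 0.31. Under median centring 17 were higher on 4 of 4 and the median was 0.69, whereas from the deposited log2 ratios 2 were and the median was -0.17. Gnl3, nucleostemin, had 1.03 ± 0.89, with repeat 3 at 2.29, and 1 other clone at 0.22. Rpl5, a protein of the 5S particle that Rpf2 helps to load, had 0.80 ± 0.32, but its clone title names a splicing factor, and of 3 other clones 2 were above 0. Ebna1bp2 had 0.82 ± 0.55, with 2 of 2 other clones below 0. The adjusted p was 0.454 for each of the 3. Rrs1, the direct partner of Rpf2, had -0.08, -0.09, 0.50 and 0.40 (mean 0.18 ± 0.31, n = 4), and Rpl11, the other protein of that particle, had -0.16 ± 0.69.

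Of 16 measured calcium sensors and EF-hand buffers, 1 was higher on 4 of 4 arrays and 1 lower, with a median of 0.13. The median was 0.25 under median centring and 0.54 from the deposited log2 ratios, with 3 higher on 4 of 4 in each. Hpcal4, a close relative of Vsnl1, had 0.86, 0.85, 0.94 and 0.95 (mean 0.90 ± 0.05, n = 4, adjusted p = 0.454), from a clone titled as similar to visinin-like protein. Of its 3 other clones 2 were above 0 and 1 was at -0.51. Hpca, hippocalcin, had 0.63 ± 0.97, with repeat 3 at 2.04, and Ncs1, the sensor that regulates exocytosis, 0.12 ± 0.34, the only 1 of its 3 clones above 0 (lowest -0.39). Kcnip4 had -0.32 ± 0.28.

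Of 16 tetraspanins measured beside Tm4sf1, 5 were higher on 4 of 4 arrays and 2 lower, with a median of 0.06. The median was 0.35 under median centring, 0.15 under print-tip loess and -0.21 from the deposited log2 ratios, with 5, 3 and 2 higher on 4 of 4. None of the 4 other L6 genes looked for was measured. Cd63, a tetraspanin of late endosomes and granules, had 0.57 ± 0.26 and 2 of 2 other clones above 0 (adjusted p = 0.476). Tspan6 had 0.83 ± 0.95 and Tspan2 0.53 ± 0.33. Since Tm4sf1 is also abundant in endothelial cells, that cell type's markers are given here. Of 11 markers 9 were measured, 5 of them with a mean above 0, where 52.9% of named genes had one. On 4 of 4 arrays 3 were higher and 0 lower, where 11.7% and 8.13% of named genes were. List medians were 0.11, 0.23, 0.23 and 0.17 on repeats 1 to 4, and means ran from -0.21 to 0.56. The median of the means was 0.15. It was 0.06 under median centring and 0.67 from the deposited log2 ratios, with 1 higher on 4 of 4 in each. Control signal passed 2 background SD on 4 arrays for 1 of the 9. The part of other cells in the Tm4sf1 ratio was not tested. A change in the number of cells of a type and a change in RNA per cell cannot be told apart here.

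Of 17 measured genes of integrin adhesion, 3 were higher on 4 of 4 arrays and 1 lower, with a median of 0.09. The median was 0.15 under median centring, 0.27 from the deposited log2 ratios, -0.08 under print-tip loess and -0.02 with scaling between arrays, with 2, 2, 2 and 3 higher on 4 of 4. Zyx, zyxin, had 0.54 ± 0.34, Rsu1 0.48 ± 0.43 and Itgb1, the integrin subunit bound by kindlins, -0.55 ± 0.31 (adjusted p = 0.485, 0.522 and 0.480). Of 2 other Itgb1 clones 1 was at 0.91. Fermt3, the kindlin of blood cells, had -0.39 ± 0.76. In NAD metabolism 0 of 16 measured genes were higher on 4 of 4 arrays and 2 were lower, with a median of -0.05, which was 0.20 under median centring, 0.06 under print-tip loess and 0.22 from the deposited log2 ratios. Under median centring 5 of the 16 were higher on 4 of 4. Sirt5 had 0.63 ± 0.97, Nadk 0.38 ± 0.35 and Nnt -0.50 ± 0.66. Of the enzymes of the step after Nampt, Nmnat1 had 0.41 ± 0.82, Nmnat2 -0.01 ± 0.35 with 1 of its 3 clones above 0, and Nmnat3 -0.10 ± 0.42.

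Of 23 measured genes of ARL3 cargo and ciliary transport, 4 were higher on 4 of 4 arrays and 1 lower, with a median of 0.08. The median was 0.34 under median centring, 0.21 under print-tip loess and -0.44 from the deposited log2 ratios, with 4, 5 and 0 higher on 4 of 4. Bbs1 had 1.00 ± 0.91 and Ift20 0.76 ± 0.49, with other clones above 0 for both, while Pde6d had -0.60 ± 0.55 and 1 other clone at 0.44. Arl3, the GTPase bound by Cfap36, had 0.08 ± 0.57. Of 9 measured partners of Zfp638, 0 were higher on 4 of 4 arrays and 1 was lower, with a median of -0.11. Under median centring the median was 0.37, and 4 of 9 were higher on 4 of 4. Of the silencing genes, Mphosph8 had 0.43 ± 0.48, Pphln1 0.50 ± 0.56 and Trim28 -0.38 ± 0.49 with 3 of 3 other clones below 0. Matr3, which resembles Zfp638 in sequence, had 0.20 ± 0.43.

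**Figure D3:**
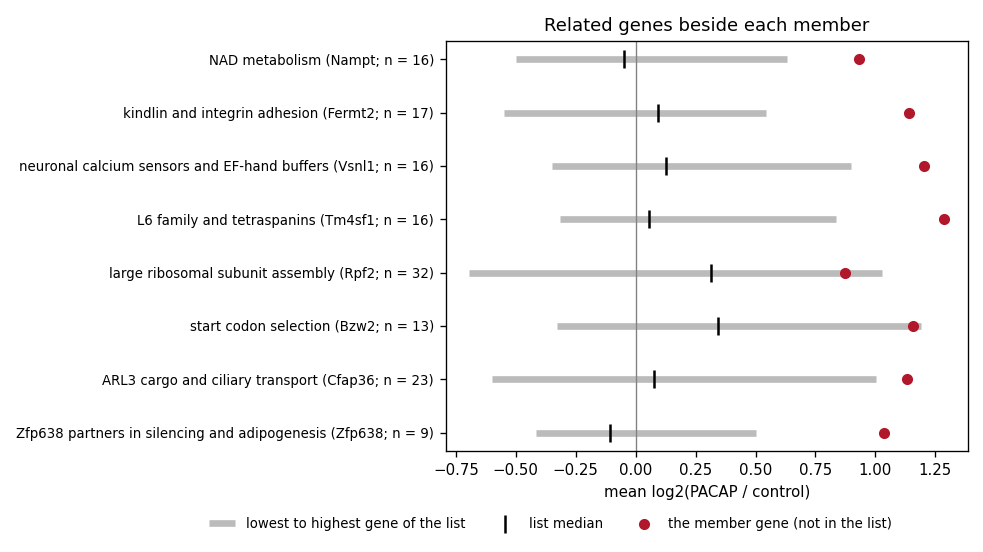
Mean log2(PACAP / control) for the measured genes of each list (grey bar from the lowest to the highest gene, black tick at the median) and for the member gene beside it (red point, mean of its clones). The red points lie above every gene of 6 lists and inside the bars of ribosomal subunit assembly and start codon selection. Members were chosen for high ratios in this contrast, so their place is a description. List genes are shown by their brightest clone only.

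Over the arrays, median intensity of library spots was 99.9 to 402.7 in the PACAP channel and 129.4 to 548.0 in the control channel. Control signal passed 2 background SD for 46.0 to 98.3% of library spots, the lowest share being on repeat 3. Of 15 chromaffin markers 9 were measured, and 6 of these had control signal above 2 background SD on all arrays. Their list median was 0.15, and 2 of the 9 were higher on 4 of 4 arrays. The median was 0.64 under median centring, with 4 higher on 4 of 4, and 0.23 with scaling between arrays. Under print-tip loess it was -0.05, and from the deposited log2 ratios -2.30. Limma gave 3 of the 9 an unadjusted p under 0.05 as higher and 0 as lower, against 4.33% and 4.53% of named genes. For other cells the list medians were -0.26 (adrenal cortex, 7 genes), -0.13 (fibroblasts, 11), 0.22 (leukocytes, 9), 0.01 (Schwann and sustentacular cells, 6) and -0.46 (erythrocytes, 3). The signs for adrenal cortex, fibroblasts, Schwann cells and erythrocytes changed under at least 1 other scaling, and the part of these cells in the members' ratios was not tested.

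**Figure D4:**
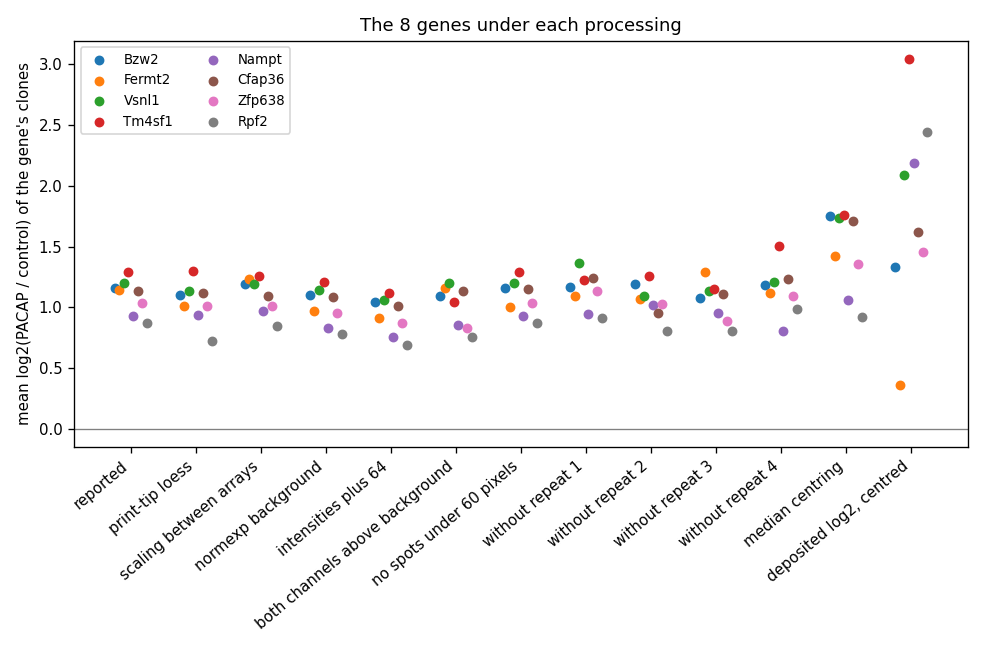
Mean log2(PACAP / control) of each gene's clones (vertical axis, 1 colour per gene) under the reported processing and 12 alternatives. All 8 genes stay above 0 throughout, with the widest spread, 0.36 to 3.04, from the deposited log2 ratios.

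The gene means kept their sign under every alternative processing tried. They ranged from 1.04 to 1.75 for Bzw2, 1.06 to 2.09 for Vsnl1, 1.04 to 3.04 for Tm4sf1, 0.76 to 2.19 for Nampt, 0.95 to 1.71 for Cfap36, 0.83 to 1.46 for Zfp638, 0.69 to 2.44 for Rpf2 and 0.36 to 1.42 for Fermt2. The low ends for Tm4sf1 and Zfp638 came with both channels above background, where only clones AU040956 and AU041432 were left for these genes. Single clones did not all keep their sign. From the deposited log2 ratios, which take the background off a second time, Bzw2 AW544343 had -0.44, Fermt2 AI846476 -0.12, Fermt2 AW538976 -0.68 and Zfp638 AU041432 -0.52. From those ratios 4 of 17 clones were higher on 4 of 4 arrays instead of 15, beside 10.8% of all clones instead of 10.1%.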

How the data were processed

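Each of the 4 scanner tables gave 37632 spots, of which 36096 held library clones. Per the file headers, the deposited values are linear intensities of each spot and its background, the spot area, a quality score and a calibrated Cy5 over Cy3 ratio; no source names the image program. Total intensity divided by spot area showed that local background was already off the deposited mean, so none was subtracted again. The deposited series table holds log2 ratios, recomputed as a second background subtraction with a floor of 1, less the log2 calibration factor, and not centred (medians 4.67, 5.51, 4.25 and -0.38 on repeats 1 to 4). The authors' steps are not stated.

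After a floor of 1, the log2 ratio of Cy5 to Cy3 went through global loess, array by array, in limma 3.58.1 under R 4.3.3. Spots without a library clone or an area had weight 0. A clone was tested where either channel exceeded 2 background SD on 3 or more arrays. The mean was tested against 0 with lmFit and eBayes (2-sided, Benjamini-Hochberg over all 35112 clones). The fit was tested on simulated data. Symbols came from the platform annotation, joined by plate position where the median difference over the 4 arrays was under 0.1 log2 (35695 of 35873 entries, of which 92.2% were within 0.1 on every array); a single symbol was given for 22477 spots, several for 1111 and none for 12508.

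The members and lists were chosen with earlier results of these data known. Named beside the members are up to 3 genes of smallest p in each list, the 3 profiles nearest to the members' mean, and close relatives of members picked after their values could be seen. Lists match by symbol only. Summaries used Python 3.11.15 with pandas 2.3.3. Alternatives were print-tip loess, median centring, normexp, between-array scaling, an added 64, the deposited ratios, other filters, other moderation and each array left out.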

Additional observations from a re-analysis of the deposited data

Results flagged for a closer look

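In 87 sets of 4 array values, an array far from the other 3 was looked for. By chance about 1 set in 20 would hold such an array, and 5 did. Among the members, repeat 3 gave Rpf2 clone AU043242 a log2 ratio of 1.42, while its remaining arrays lay at 0.44 to 0.60. Its other clone did not share that value. Among related genes, Tspan2 had 1.02 on repeat 2, against 0.33 to 0.42, and Trim28 had 0.35 on repeat 1, against -0.67 to -0.58. Among markers, the leukocyte gene C1qc had 2.18 on repeat 3, against -0.07 to 0.16, and the median of the adrenal cortex list was -0.52 on repeat 2, against 0.03 to 0.09.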

How the results depend on the processing

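The count of member clones higher on 4 of 4 arrays was 15 of 17 as reported. It was 4 of 17 from the deposited log2 ratios and 9 of 10 with spots kept only where both channels exceeded background. The second has fewer clones with all arrays. Over all clones the share was 10.1% as reported, 10.8% from the deposited log2 ratios and 11.3% with both channels above background. With each array left out the member count was 15 to 16, counted over the remaining arrays. That criterion is easier, and 13.8 to 19.6% of all clones met it. Without the clones annotated Fermt2 the member count was 13 of 14. No clone of 35112 passed the adjusted threshold, but 461 did from the deposited log2 ratios; the cause was not tested. Of all clones, 3647 had an unadjusted p under 0.05; this was 6099 under median centring, 2202 with both channels above background, 912 with trend and robust moderation, and 1835 (without repeat 3; 2145 without repeat 2) to 5150 (without repeat 4) with an array left out. Clone means turned negative only from the deposited log2 ratios (-0.44, -0.12, -0.68 and -0.52 for AW544343, AI846476, AW538976 and AU041432). Over all alternatives 247 of the clone values moved by less than 1 SD, 30 by more, and 4 reversed. Some of the 247 could not move: 18 without the filter on dim clones, 18 with joins by plate position alone and 15 without the clones annotated Fermt2. Median centring moved 9 and kept 9, and the deposited log2 ratios moved 12, reversed 4 and kept 2. No pairing beyond that of the ratios was possible because the arrays form 1 group. Each ratio already sets a repeat's treated RNA against its own control. No alternative ran with dyes exchanged. The choices added after the values were seen were unnormalised ratios, the brightest class as a background and clones sharing a UniGene cluster. On repeats 2 and 3 control signal exceeded 2 background SD in 12 of 18 member clones each, where 53.0 and 46.0% of library spots did. The ratios of the other member clones there rest on weak control signal. Its effect on the size of those ratios was not tested array by array.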
